A study of Mus musculus with 11 samples.

Results

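The baseline transcriptome described here is that of 3 libraries labelled hippocampus, taken from male mice that had received saline through the nose. The members are the rows of the authors' series table, named by gene symbol, that carry a value in all 3 of these libraries. There are 29756 such rows of 46202, or 64.4%. The study measured RNA by sequencing in 11 libraries of strain C3-C57B1/6J, aged 2 to 3 months and housed singly. Beside the 3 saline libraries it holds 2 libraries at 15 min, 3 at 1 h and 3 at 6 h after insulin at 2.4 IU per nare, and no insulin library enters any value below. By title these controls got saline, by treatment label they are untreated, and their time label is 0 min. Isoflurane preceded removal of the brain, and libraries came from a stranded total RNA kit, so RNA without a poly(A) tail is in the measurement. The labels do not state that each library is 1 animal, and all spreads below are those between the 3 libraries.

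The hippocampus is a forebrain structure needed for forming memories of places and events. Its excitatory circuit runs from granule neurons of the dentate gyrus to pyramidal neurons of the fields CA3 and CA1, and interneurons that release GABA hold that circuit in check. Astrocytes, oligodendrocytes, microglia and vessels make up the rest of the tissue, and the thalamus, hypothalamus and choroid plexus lie beside or beneath it. Total RNA of any tissue is led by ribosomal and other structural RNAs, and the RNA of nerve cells is rich in transcripts for mitochondria, glycolysis, the cytoskeleton and vesicle release.

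The values are log2 signals, and every library has the same lowest value of -13.64, the same median of -3.20 and the same highest value of 16, as quantile normalization leaves them. A value near the top of the scale therefore tells a row's rank in its library rather than an independent amount. Values were present for 33505, 32941 and 33510 rows in replicates 1, 2 and 3. Another 3442 rows had a value in 2 of the 3 libraries, 3804 in 1, and 9200 in none. Read depth is unknown, so no counting interval can be given.

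By its values, the signal is set per length of the whole gene, introns included. In rows with a value in exactly 1 saline library, which lie near the limit of detection, the median log2 signal was -5.19 for gene spans of 256 to 512 bases, -7.82 for 2048 to 4096 bases and -11.40 for 32768 to 65536 bases. The slope over 2704 such rows was -0.90 log2 units per doubling of the span (Pearson r = -0.90 across genes, which are not independent replicates). Among 820 of these rows whose span is more than 2 times the exon length, r was -0.83 for the span and -0.53 for the exon length. A gene with long introns therefore reads lower here than on a scale per kb of exon, and the value per kb of exon is given beside the main orders it changes. That value takes all signal of a gene as coming from exons. If reads from introns were counted, it is too high for genes with long introns, which was not tested.

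**Figure D1:**
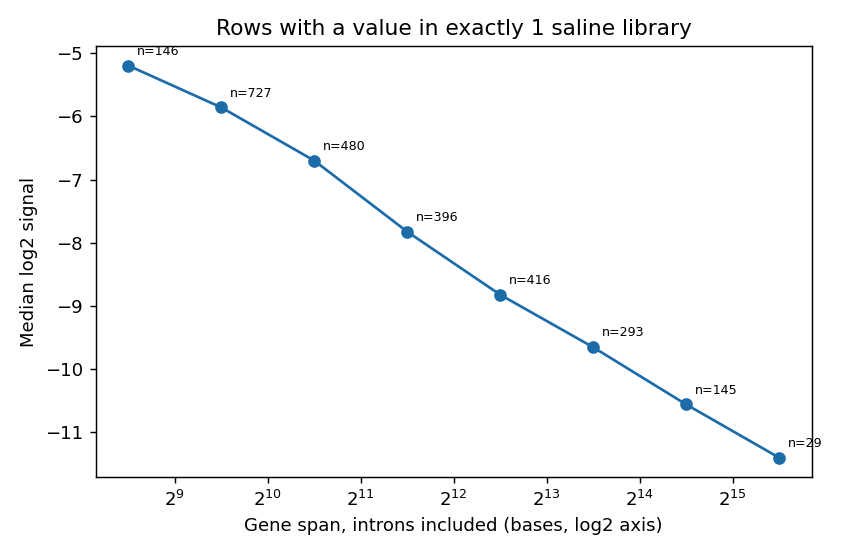
Median log2 signal (vertical axis) of rows with a value in exactly 1 saline library, against gene span in bases with introns (horizontal axis, log2 scale); each point is 1 class of span and n is its number of rows. The medians descend from -5.19 in the shortest class to -11.40 in the longest.

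Markers of the labelled tissue were present but did not lead. The thalamus list, which holds the transcription factors Zic1 and Gbx2, the kinase gene Prkcd and the vesicular glutamate transporter Slc17a6, averaged 1.82, 1.84 and 1.49 in replicates 1, 2 and 3. The list of pyramidal and excitatory neurons averaged -1.19, -1.85 and -0.25 in the same libraries. The thalamus list lay above it in every library, by 3.01, 3.68 and 1.74 log2 units (mean 2.81 ± 0.99 SD, n = 3), and the 2 lists did not overlap. None of the 8 thalamus genes is on another of the 22 marker lists, although Calb2, Rora and Zic1 are known outside the thalamus too. Per kb of exon the gap was 3.80, and between medians of members it was 1.65.

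Single genes show where that gap came from. Zic1 read 4.20, 4.29 and 3.81 in replicates 1, 2 and 3, Prkcd 3.32, 3.22 and 2.7, and Gbx2 2.16, 2.14 and 1.35, so replicate 3 was the lowest for each. Slc17a6, the transporter typical of thalamic and other subcortical glutamate neurons, read 2.91, 2.95 and 2.61, against 2.51, 2.30 and 2.89 for Slc17a7, the one typical of hippocampal and cortical neurons. These 2 genes overlapped, with Slc17a6 above Slc17a7 in replicates 1 and 2 and below it in replicate 3 (mean difference 0.25 ± 0.48 SD, n = 3); per kb of exon the means were 6.02 for Slc17a6 and 3.75 for Slc17a7. At the other end, Emx1, a factor of the dorsal forebrain, read -4.28, -5.03 and -3.49.

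Hippocampal fields were represented by some of their markers. Prox1, the factor that defines dentate granule neurons, read 0.73, 0.81 and 0.82, and C1ql2, a synaptic protein of their mossy fibres, 2.20, 2.05 and 2.32, with little spread between libraries. Other granule-cell markers were low, among them Dsp at a mean of -3.02, Tdo2 at -3.71 and Lct at -3.86, and 3 of 9 dentate markers averaged 0 or more. Of the 6 CA1 markers, 1 did so, Pou3f1 at 0.52, while Wfs1 averaged -0.58 and Fibcd1 -2.02. Of the 6 CA2 markers 3 reached 0, among them Amigo2 at 2.93 and Pcp4 at 2.47 (2.96 and 8.29 per kb of exon), and of the 9 CA3 markers 4, led by the granin Chgb at 3.82. The share of each region in the dissected tissue was not measured, and in bulk RNA fewer cells of a type and less RNA per cell cannot be told apart. The libraries are called by their label in what follows.

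Oligodendrocyte, general neuronal and astrocyte markers stood above all regional lists on the deposited scale; per kb of exon the thalamus list, at 4.78, stood above the astrocyte list, at 4.58. The oligodendrocyte list averaged 3.57 ± 0.15 (SD, n = 3), the neuron list 2.90 ± 0.07 and the astrocyte list 2.49 ± 0.12, with all 11, 7 of 8 and 11 of 12 members at or above 0. The oligodendrocyte list lay above the neuron list in each library. Among its members Mobp, a protein of myelin, read 5.25 ± 0.15, and among astrocyte genes Aldoc, an aldolase, led at 6.73 ± 0.03. Per kb of exon the neuron list came first at 6.26 and the oligodendrocyte list second at 6.13. Microglial genes averaged 0.08 ± 0.10, with the complement subunit C1qa at 3.16 ± 0.15. P2ry12, a purine receptor that defines microglia, read -11.01, -11.81 and -10.45; its gene overlaps Med12l on the other strand.

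**Figure D2:**
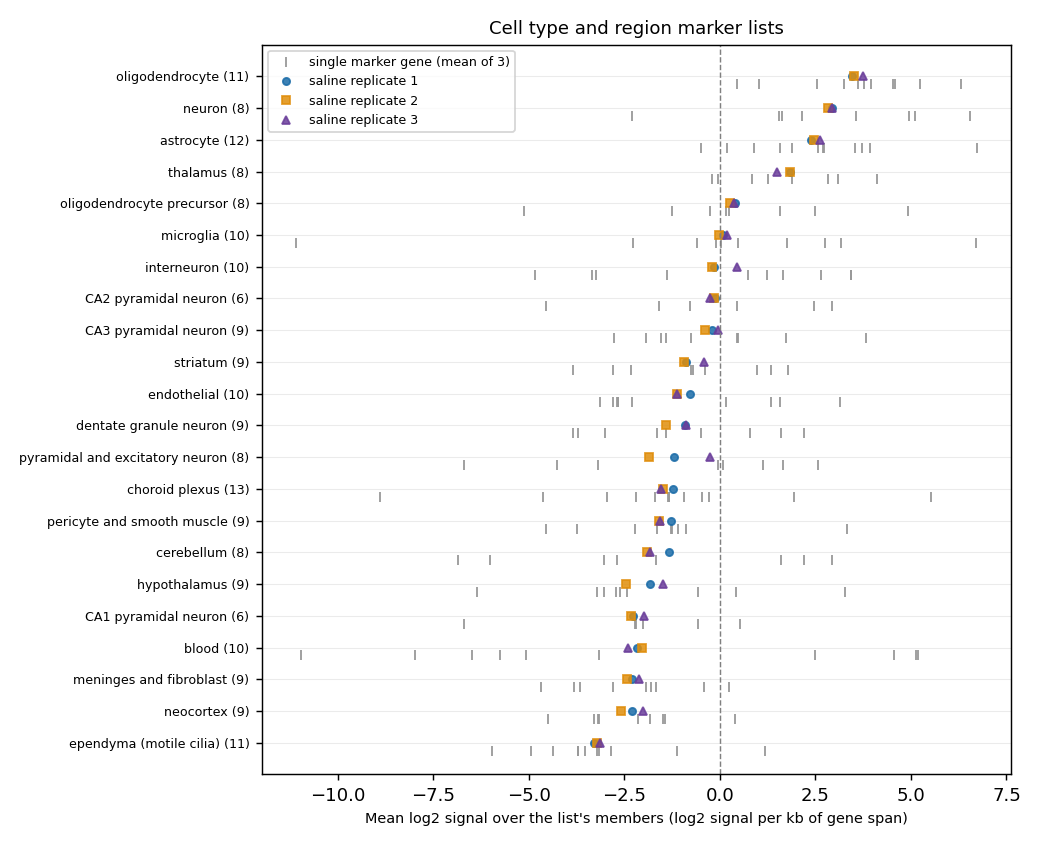
Mean log2 signal (horizontal axis) over the members of 22 marker lists, with the number of members in brackets; coloured symbols are the 3 saline libraries and grey ticks below them are single genes, as means over the 3. The thalamus list stands at rank 4, above every hippocampal field, and the pyramidal list spreads most between libraries.

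Markers of the choroid plexus, blood and vessels were measured as well. Ttr, the thyroid hormone carrier made by the choroid plexus, read 5.85, 5.22 and 5.50, while the whole choroid plexus list averaged -1.24, -1.50 and -1.55 and 2 of its 13 members were at or above 0. Globin rows, from red blood cells, were high at 5.19 for Hbb-bs and 5.14 for Hba-a1. Alas2, the haem enzyme of red cell precursors, averaged -10.96. Among vessel genes Cldn5, the tight junction claudin of endothelium, read 3.56, 3.10 and 2.78, and the endothelial list averaged -1.0 ± 0.20. The list for motile cilia of the ependyma was the lowest of the 22 on the deposited scale, at -3.22 ± 0.07, and at rank 18 per kb of exon, at 0.35, where blood was the lowest at -0.90.

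Levels over all 29756 rows ran from -12.45 to 15.90 log2 units. The median was -2.50, the 25th and 75th percentiles were -5.76 and -0.07, and 1 row in 100 was above 4.75. At or above 0 stood 7200 rows (24.2%), at or above 3 stood 1055, at or above 5 stood 260 and at or above 10 stood 18. Protein-coding genes had a value in all 3 libraries for 16792 of 19937 rows (84.2%), at a median of -1.02. Long noncoding RNAs did so for 4705 of 7095 rows (66.3%), at a median of -6.04, and pseudogenes for 2890 of 7745 (37.3%), at -2.79. Long noncoding RNAs were thus often present and seldom high, with 161 rows (3.42%) at or above 0 against 5615 (33.4%) of the protein-coding rows. A protein-coding gene that lies wholly inside another one had a value less often, in 68.4% of 316 rows on the same strand and 68.6% of 433 rows on the opposite strand, against 84.6% of 19544 rows elsewhere (types and positions here are from GENCODE, those in the counts above from RefSeq).

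**Figure D3:**
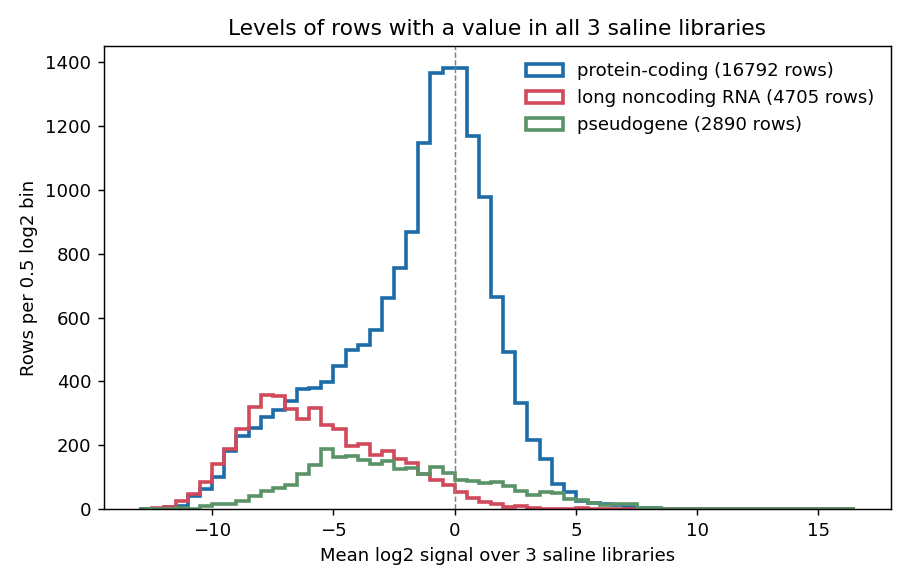
Number of rows per bin of 0.5 log2 units (vertical axis) by mean log2 signal over the 3 saline libraries (horizontal axis), for protein-coding genes, long noncoding RNAs and pseudogenes; the dashed line marks 0. Long noncoding RNAs centre on -6.04 and protein-coding genes on -1.02.

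The top of the table was made of short RNAs transcribed by RNA polymerase III and of ribosomal RNA. The 2 rows for 7SL, the RNA core of the signal recognition particle that steers new proteins to the endoplasmic reticulum, averaged 15.90 ± 0.18 (Rn7s2) and 15.61 ± 0.13 (Rn7s1). The transcripts are identical over 300 bases in the reference, so these rows cannot be told apart by sequence. Next came Rn7sk at 15.28 ± 0.29, the RNA that holds back the elongation factor P-TEFb. The mitochondrial ribosomal RNAs Rnr2 and Rnr1 read 14.54 ± 0.66 and 12.95 ± 0.24, and the cytosolic 18S row Rn18s-rs5 14.28 ± 1.54. That last row read 16, 13.05 and 13.79, replicate 1 standing apart from the others. Rpph1, the RNA of RNase P that trims transfer RNA, reached 12.17 ± 0.38, and Rmrp, the RNA of RNase MRP, 10.48 ± 0.39.

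Shares of linear signal (2 raised to the log2 value) are of the sum over all rows, with rows ordered by mean level. The 3 highest rows in that order, Rn7s2, Rn7s1 and Rn7sk, held 40.9%, 52.3% and 51.6% in replicates 1, 2 and 3. In replicate 1 the 18S row, at 16, stood above all of them and is not counted in that share. The top 10 rows held 76.6% ± 0.34 and the top 100 87.2% ± 0.03 (SD, n = 3). With quantile normalization the libraries have nearly the same ranked values, so these 2 shares and their small SDs were largely fixed in advance. The 7SL, 7SK, 18S and mitochondrial ribosomal rows made up 68.2% ± 1.12, the 13 mitochondrially encoded protein rows 8.84% ± 0.40, and all 16779 nuclear protein-coding rows 9.43% ± 0.16. These are shares of signal per length on a normalized scale and not shares of reads.

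The highest row specific to nerve cells was Bc1, at 12.53, 13.71 and 12.69 (mean 12.98 ± 0.64 SD, n = 3). Bc1 is a short RNA of rodents that arose from an alanine transfer RNA gene, is carried into dendrites and dampens local translation. Its transcript lies on chromosome 7, plus strand, from 144914470 to 144914637 in GRCm38. It is shown because its mean is above that of every mRNA row, although COX1 read higher in replicates 1 and 3. The capitals mark the only match to TAGCNNAGT, the stretch shared with the start of many transfer RNA genes, which 0.454% of 135207 annotated transcripts hold in their first 168 bases on the strand shown.
Bc1: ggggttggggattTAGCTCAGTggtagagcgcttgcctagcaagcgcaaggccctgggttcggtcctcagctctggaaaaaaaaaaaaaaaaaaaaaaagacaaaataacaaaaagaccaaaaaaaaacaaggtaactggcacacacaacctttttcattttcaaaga

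Of the 20 highest named rows, 10 encode mitochondrial proteins, which are cut from long precursors of the mitochondrial genome. COX1, the core subunit of cytochrome oxidase, led at 12.84 ± 0.01, then COX3 at 12.48 ± 0.22 and COX2 at 11.90 ± 0.31. ATP8 and ND3 followed at 11.36 and 11.21, and the order ended with ND5 at 8.25, ND6 at 7.68 and ND4L at 6.15. All 13 were above 6. Malat1, a nuclear long noncoding RNA of splicing speckles, was the highest row annotated as long noncoding after Bc1, at 9.79, 9.73 and 10.03. Further noncoding rows of neurons were lower, among them Meg3 at 5.43 ± 0.21, Rian at 3.61 ± 0.08 and Snhg11 at 5.57 ± 0.11. Apoe, the lipid carrier that astrocytes secrete, was high among nuclear mRNAs at 8.04, 8.14 and 8.11, and Eef1a1, the factor that brings transfer RNA to the ribosome, read 7.75 ± 0.03.

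All 62 gene families had at least 3 members with a value and were ranked by the mean over members. The mitochondrially encoded proteins came first at 10.10 ± 0.06 and small structural RNAs second at 6.26 ± 0.21. Glycolysis followed at 3.14 ± 0.01, the 14-3-3 proteins, adaptors that bind phosphorylated targets, at 3.09 ± 0.05, and subunits of respiratory complexes II to V at 2.91 ± 0.03. Next were tubulins at 2.85 ± 0.08, neurofilaments and other neuronal cytoskeleton at 2.82 ± 0.06, the vacuolar ATPase that acidifies vesicles at 2.61 ± 0.02, the chaperonin CCT at 2.41 ± 0.03, and translation factors at 2.38 ± 0.03. Of the 61 pairs of neighbours in the order, 22 did not overlap in the 3 libraries and 39 did, so many single places are not settled by these data. Complex II to V, tubulins and the neuronal cytoskeleton form such a run of overlapping neighbours. In 30 of the 62 families the mean was at or above 0.

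Lists of glycolysis, complex I and the tricarboxylic acid cycle were high, with little spread between libraries and a wide range over members. All 16 glycolysis genes were at or above 0, from Aldoc at 6.73 and Tpi1, triose phosphate isomerase, at 5.78, to Hk1, the hexokinase that starts the pathway, at 0.17. Aldoc stood above Aldoa, another aldolase, at 5.14, with no overlap. Ldhb, the lactate dehydrogenase form of oxidative tissue, read 3.26, 3.32 and 3.22, and Ldha, the form of glycolytic tissue, 1.83, 1.85 and 1.96, so Ldhb was the higher in each library. Complex I subunits averaged 1.87 ± 0.05, 35 of 36 at or above 0, and the pyruvate dehydrogenase and tricarboxylic acid cycle list 1.71 ± 0.02. Cytosolic ribosomal proteins averaged 2.07 ± 0.01, from Rpl41 at 6.44 to Rps10 at -0.86; many have processed copies in the genome, so their reads may be shared.

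The scale changed some ranks by a long way. Per kb of exon, glycolysis stood at rank 5 with 5.01 and the 14-3-3 proteins at rank 3 with 5.40. AMPA and kainate receptors stood at rank 36 on the deposited scale (-0.62) and at rank 8 per kb of exon (4.72), and metabotropic glutamate receptors at ranks 43 and 18. Ribosomal proteins, whose introns are short, stood at rank 11 and at rank 24. The intronless protocadherin beta cluster, adhesion molecules that vary from neuron to neuron, stood at rank 22 and at rank 43, with 0.58 on both scales. Protocadherin gamma and alpha genes, in which many long first exons share the same last exons, were at -4.79 and -9.40 on the deposited scale, where the alpha family was the lowest of all. Per kb of exon they were at 0.24 and -3.95, and Hox genes were the lowest at -6.11. Only 7 of 22 gamma rows and 7 of 14 alpha rows had a value in all 3 libraries.

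Genes of the synapse spread over a wide range. Synaptic vesicle proteins averaged 1.67 ± 0.06, with Rab3a, a small GTPase of vesicle docking, at 5.61, and synaptophysin (Syp) at 4.99. Among synaptotagmins, the calcium sensors of release, Syt4 at 4.20 and Syt11 at 4.05 were highest on the deposited scale (5.51 and 6.60 per kb of exon). Syt1, the main sensor of fast release, read 1.60, 1.51 and 1.73, at place 4 of 16 on the deposited scale and overlapping Syt7, and per kb of exon was highest of them at 7.56 (span 513331 bases, exons 8338 bases). Calmodulins, which carry the calcium signal to kinases, included Calm3 at 6.20 ± 0.07 and Calm2 at 4.86 ± 0.04; per kb of exon these were at 8.04 and 8.06. Of the CaM kinase II genes, Camk2a read 1.58, 1.37 and 1.97 and Camk2b 1.53, 1.28 and 1.5, which overlapped, while Camk2g averaged 0.91 and Camk2d -0.35; per kb of exon Camk2b stood at 4.84 and Camk2a at 4.71.

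Receptor subunits also ran from a leader to a low tail. The obligatory NMDA subunit Grin1 read 2.41, 2.29 and 2.25. Grin2c, known from cerebellum and thalamus, averaged 1.29 ± 0.18 and Grin2b, the juvenile forebrain form, 1.02 ± 0.12, and these overlapped. Grin2a, the adult forebrain form, averaged -0.05 ± 0.26. Per kb of exon the order was Grin2b at 5.23, Grin2a at 4.53, Grin1 at 3.85, Grin3a at 3.36 and Grin2c at 3.14. Of the AMPA subunits, Gria2, which makes the channel tight to calcium, averaged 1.68 ± 0.43, Gria4 0.62 ± 0.10, Gria1 0.44 ± 0.38 and Gria3 -0.16 ± 0.17; Gria4 and Gria1 overlapped, and per kb of exon Gria4 led at 6.53 with Gria1 at 6.16. GABA-A alpha subunits included Gabra4 at 1.74, Gabra2 at -0.56, Gabra3 at -1.44, Gabra5 at -1.87 and Gabra6, a granule cell form of the cerebellum, at -6.03. Gabra5, the alpha subunit typical of hippocampal pyramidal neurons, read -2.11, -2.22 and -1.28 and overlapped Gabra3. On the scale per kb of exon Gabra4 stood at 5.60, and Gabra3 at 4.39 and Gabra5 at 4.08 stood above Gabra2 at 3.61.

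Genes of the insulin pathway, whose response the study set out to follow, were of middling level at baseline. The list of receptors, substrates and ligands averaged -1.27 ± 0.08 over 19 of 20 rows, and the median of its members was -0.70. The median was -2.50 over all rows and -1.02 over protein-coding rows. Of the 19 members, 4 (21.1%) were at or above 0, against 33.4% of protein-coding rows. The insulin receptor Insr read -0.70, -0.82 and -0.58, and Igf1r, the receptor of insulin-like growth factor, -0.46, -0.67 and -0.44, which overlapped. The highest member was Igfbp5, a protein that binds insulin-like growth factor, at 2.58 ± 0.09. Irs2, an adaptor of both receptors, read 1.23, 1.17 and 1.09, above Irs1 at -0.21, -0.30 and -0.18. Among these 2 receptors and 2 adaptors, the values per kb of exon were 3.54 for Igf1r, 3.10 for Irs2, 2.53 for Insr and 2.44 for Irs1. Ins2, the insulin gene also known outside the pancreas, read -4.93, -4.37 and -3.90, and Ins1 had no value. Of the glucose transporters, Slc2a1 of vessels and astrocytes averaged 0.57 ± 0.16, Slc2a3 of neurons 0.07 ± 0.02, the insulin-regulated Slc2a4 -2.55 ± 0.23 and Slc2a2 of liver and pancreas -3.44 ± 0.18, with no overlap between neighbours. When set per kb of exon, Slc2a2 stood at -1.04 and Slc2a4 at -1.78. The corticosteroid receptor Nr3c1 read 1.07, 1.07 and 0.96, and the mineralocorticoid receptor Nr3c2, known for its high level in hippocampal neurons, -0.70, -1.05 and -0.31; per kb of exon they were at 4.86 and 5.06.

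Lipid lists, the other subject of the study, differed in level. Cholesterol synthesis averaged 0.60 ± 0.03, fatty acid synthesis and desaturation 0.45 ± 0.03, fatty acid uptake and binding 0.25 ± 0.07, sphingolipid synthesis -0.46 ± 0.04, fatty acid oxidation -0.50 ± 0.01, apolipoproteins and sterol efflux -0.68 ± 0.03, and lipid droplets and lipases -1.61 ± 0.03. The sphingolipid and oxidation lists overlapped. Fatty acid synthesis came first per kb of exon at 3.25, before uptake at 2.86 and cholesterol synthesis at 2.66, and lipid droplets remained last at 0.39. With medians over members both ends turned: uptake and binding was first at 0.78, before cholesterol synthesis at 0.46 and fatty acid synthesis at 0.38, and oxidation was last at -0.82, with lipid droplets at -0.62. Scd2, the stearoyl-CoA desaturase of brain, was the highest of the synthesis genes at 6.45 ± 0.13 and Hmgcs1, an early enzyme of the cholesterol path, led that list at 3.39 ± 0.08. The carnitine acyltransferases, which pass fatty acids into mitochondria, were ordered Cpt1c, the neuronal form in the endoplasmic reticulum, at 0.84 ± 0.09, Cpt1a, the form of liver and astrocytes, at -1.5 ± 0.09, and Cpt1b, the form of muscle, at -6.16 ± 0.36. In each library all 3 stood in that order. Acadvl, which opens the oxidation of long chains, read 2.16 ± 0.07. Cd36, a fatty acid receptor of macrophages and muscle, averaged -6.84 ± 0.04.

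Activity-dependent genes were read in animals that had been handled and anaesthetized. Jund averaged 4.0 ± 0.03, Arc, a regulator of AMPA receptor uptake, 2.43 ± 0.21, Junb 2.24 ± 0.20, Egr1 1.02 ± 0.16 and Fos 0.96 ± 0.05, with overlap between Arc and Junb and between Egr1 and Fos. Set per kb of exon, Fos stood at 1.49 and Egr1 at 1.02. Npas4, a factor induced by calcium entry into neurons, averaged -2.28 ± 0.21 and Fosb -3.28 ± 0.12. Egr3 read -2.0, -2.34 and -0.43, so replicate 3 stood apart.

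Genes of other tissues were low or without a value. Olfactory receptors had a value in all 3 libraries for 106 of 1425 rows, at a mean of -5.94 ± 0.12, vomeronasal receptors for 76 of 329, at -7.83 ± 0.07, and Hox genes, which pattern the trunk and hindbrain, for 6 of 39, at -7.93 ± 0.48. No member of these 3 families averaged 0 or more. Muscle-defining genes averaged -4.84 ± 0.23, and liver-defining genes -4.67 ± 0.25 with Ttr, also a choroid plexus gene, as the only one of 8 at or above 0. These means cover only the members with a value, and the rest had none in at least 1 library.

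The 3 libraries were alike over most rows. Spearman's rho over 29756 rows was 0.99 for each pair, as a description across genes that share their libraries. The median SD was 0.18 over all rows and 0.085 over the 7200 rows at or above 0. Without replicate 3 that second median was 0.053. It was 0.62 in rows under -8, 0.23 from -5 to -2 and 0.079 from 2 to 4. Of the 7200 rows, 4307 (59.8%) had an SD under 0.1 and 78 (1.08%) over 0.5. Cox4i1, a nuclear subunit of cytochrome oxidase, was the steadiest at 4.48, 4.47 and 4.48, with Zfp790, Paip2b, Tsr2 and Samd1 next.

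**Figure D4:**
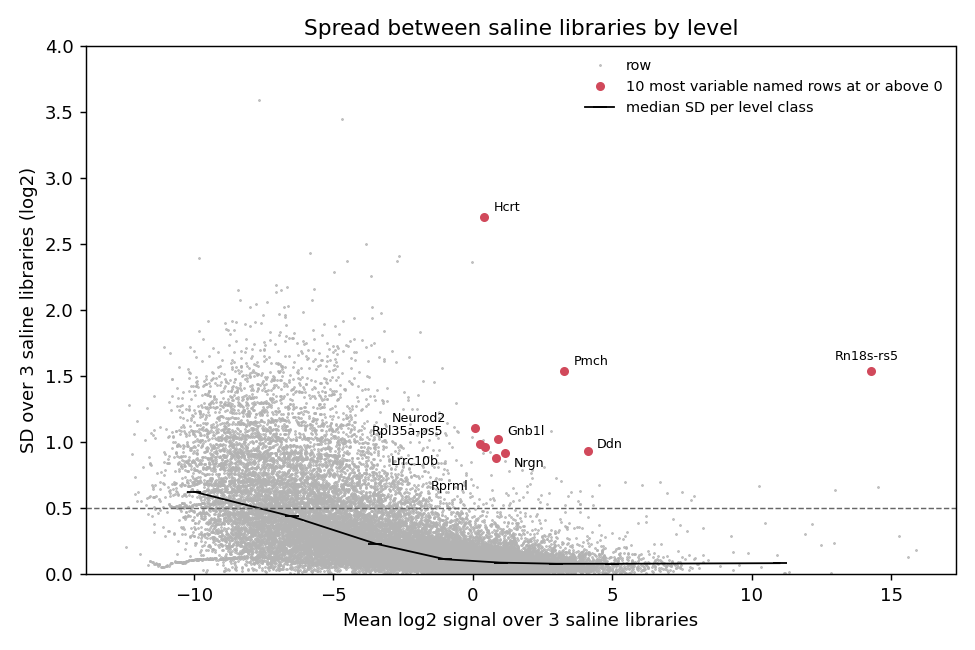
SD over the 3 saline libraries in log2 units (vertical axis) against mean log2 signal (horizontal axis), 1 grey point per row; red points are the 10 most variable named rows at or above 0, the black line joins the median SD of each level class, and the dashed line marks 0.5. The median SD shrinks from 0.62 in the lowest class to 0.079 from 2 to 4, and Hcrt, Pmch and Rn18s-rs5 lie far above it.

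The named rows at or above 0 with the largest SD were Hcrt, Pmch, the 18S row Rn18s-rs5, Neurod2, Gnb1l and the pseudogene Rpl35a-ps5. Hcrt, the orexin precursor made by neurons of the lateral hypothalamus, read -0.03, -2.05 and 3.31 in replicates 1, 2 and 3 (SD 2.71). Pmch, the precursor of melanin-concentrating hormone made beside them, read 3.27, 1.74 and 4.82 (SD 1.54). Both were highest in replicate 3 and lowest in replicate 2. Other hypothalamic peptides did not follow that order, Trh reading -1.26, -0.28 and -0.19 and Oxt -2.10, -3.78 and -3.78.

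Some forebrain genes had the same order of libraries as Hcrt and Pmch. Neurod6, a factor of pyramidal neurons, read -0.60, -2.07 and 2.55 (SD 2.36), just under the level at which the most variable rows were listed. Ddn, a postsynaptic protein of forebrain dendrites, read 4.08, 3.21 and 5.07, Nrgn, the calmodulin-binding neurogranin, 1.15, 0.21 and 2.05, and Neurod2 0.40, -1.17 and 0.97. All 8 genes of the pyramidal and excitatory list were highest in replicate 3, and 7 of them were in the order replicate 3, 1, 2. In the other forebrain lists that order held for 5 of 9 dentate, 5 of 9 CA3, 4 of 9 striatum, 3 of 9 neocortex, 1 of 6 CA1 and 1 of 6 CA2 genes. Of the 78 variable rows 25 (32.1%) had that order, against 1983 (27.5%) of the 7200. Replicate 3 was also highest in another 969 (13.5%) of the 7200, in the order 3, 2, 1. These shares cover rows at or above 0 only, as were 4 of the 8 pyramidal and excitatory genes. The orders of lower rows as a whole were not counted.

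Of the other lists, all 11 oligodendrocyte genes were highest in replicate 3. So were 9 of 10 interneuron genes, 7 of them in the order 3, 1, 2. Of the 10 interneuron genes, 6 were at or above 0. Sst, somatostatin, read 4.11 in replicate 3, against 3.14 and 3.04 in replicates 1 and 2. None of the 8 thalamus genes was highest in replicate 3. Choroid plexus genes were highest in replicate 1 for 11 of 13, endothelial genes for 7 of 10 and pericyte genes for 7 of 9. Of the 7200 rows at or above 0, 1522 (21.1%) had the order 1, 2, 3 and 1053 (14.6%) the order 1, 3, 2. In the choroid plexus, endothelial and pericyte lists only 2, 4 and 1 genes were at or above 0. Of the 12 astrocyte genes, 8 were highest in replicate 3, 2 in replicate 1 and 2 in replicate 2. The astrocyte list averaged 2.39, 2.47 and 2.62. Within it Gfap, the astrocyte filament gene, read 2.17, 2.62 and 3.38, and Aldoc read 6.72, 6.75 and 6.7. Replicate 1 was also the highest for the 18S row and for Gnb1l at 1.93, -0.12 and 0.88. The part that the makeup of the dissected tissue plays in these spreads was not tested.

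Promoters of Hcrt and Pmch are shown because these 2 rows led the most variable at or above 0 and had the same order of libraries. Each runs from 250 bases before to 50 bases after the annotated start in RefSeq, build GRCm38.p6, and the capitals mark the match to TATAAA, the core promoter element that places RNA polymerase II. Hcrt lies at chr11:100762882-100763181 on the minus strand and Pmch at chr10:88090822-88091121 on the plus strand.
Hcrt: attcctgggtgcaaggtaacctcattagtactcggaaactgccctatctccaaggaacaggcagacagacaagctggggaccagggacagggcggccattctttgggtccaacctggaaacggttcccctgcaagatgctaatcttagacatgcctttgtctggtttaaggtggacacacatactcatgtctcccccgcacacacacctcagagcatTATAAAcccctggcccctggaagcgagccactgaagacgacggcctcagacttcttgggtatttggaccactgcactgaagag
Pmch: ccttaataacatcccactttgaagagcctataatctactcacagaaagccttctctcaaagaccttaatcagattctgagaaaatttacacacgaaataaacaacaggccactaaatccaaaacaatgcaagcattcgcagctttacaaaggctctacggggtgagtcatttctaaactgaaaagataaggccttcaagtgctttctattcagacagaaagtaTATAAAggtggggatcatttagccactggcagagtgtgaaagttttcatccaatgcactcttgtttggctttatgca
TATAAA was searched on the strand of the gene in bases 201 to 250 of the window, where 317 (2.38%) of 13340 protein-coding promoters hold it. The share was 6.18% in genes under -5, 1.00% in genes from 0 to 2 and 4.27% (7 of 164) in genes at or above 4, so it was higher at both ends of the scale. The cAMP response element TGACGTCA, a palindrome and so the same on both strands, was found in 366 windows (2.74%), from 0.908% of genes under -5 to 7.32% (12 of 164) at or above 4, and in neither Hcrt nor Pmch. The median number of CG pairs in the window was 4 in genes under -5, 22 in genes from 0 to 4 and 18.5 in genes at or above 4. Hcrt had 7 and Pmch 3, against 27 for Gbx2 and 31 for Zic1.

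MicroRNA loci gave a further set. Of 1178 rows whose symbol begins with Mir, 36 had a value in all 3 libraries, a few of them host genes such as Mir22hg at 1.02. A hairpin position was matched for 30 of the 36, and 15 of these lie on chromosome 12 between 109586314 and 109734974, within the imprinted region that holds Meg3 and Rian, where 41 of the 1178 rows were placed. Mir666 was not among those matched, and its mature sequences lie in the same window. The highest were Mir666 at 0.74, 1.35 and 1.79, Mir134, known to act in dendritic spines, at 1.48, 0.70 and 1.20, Mir485 at 0.73, 0.94 and 1.03, Mir543 at 0.67, 0.75 and 1.20 and Mir382 at -0.21, 0.44 and 0.85. The ranges of these neighbours overlapped. A library of this kind reads the locus, hairpin precursor and host transcript included, and does not count the mature microRNA. Their mature sequences from RefSeq (GRCm38.p6) follow, with the seed (bases 2 to 8) in capitals, because the seed sets which mRNAs a microRNA can pair with. For Mir485 mmu-miR-485-3p alone is shown. No 2 of the 9 sequences shown share a seed.
mmu-miR-666-5p: aGCGGGCAcagcugugagagcc
mmu-miR-666-3p: gGCUGCAGcgugaucgccugcu
mmu-miR-134-5p: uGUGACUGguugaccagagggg
mmu-miR-134-3p: cUGUGGGCcaccuagucacc
mmu-miR-485-3p: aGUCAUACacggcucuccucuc
mmu-miR-543-5p: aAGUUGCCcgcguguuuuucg
mmu-miR-543-3p: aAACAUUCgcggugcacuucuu
mmu-miR-382-5p: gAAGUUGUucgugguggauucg
mmu-miR-382-3p: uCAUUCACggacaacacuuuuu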

How the data were processed

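RNA of 3 saline libraries labelled hippocampus was taken from the authors' deposited table of log2 signal values, 1 row per gene symbol and 1 column per library. Per the submitters' processing notes, the tools were bcl2fastq and Partek 6.7 and the build was GRCm38; an aligner, a counter and an annotation are not given in these sources. From the values, the deposited log2 signal is quantile-normalized between libraries and set per length of the gene span. A question mark in the table was treated as a missing value and none was filled in. Read depth is not known.

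A row's level is the mean of its 3 log2 values and its spread their SD (n = 3). A family's level is the mean over its members in each library, so its SD is over the 3 libraries. Families needed 3 members with a value, and neighbours were called overlapping where their ranges over the 3 libraries met. With 1 group of 3 libraries and no contrast, no test was run. Signal per kb of exon is the deposited value plus log2 of gene span over exon length. It holds only where all signal of a gene comes from exons, and the share from introns was not measured. Where the exon length exceeded the span, as for Egr1 and Junb, nothing was added. Spans came from RefSeq (24790 of the 29756 rows matched by symbol) and exon lengths from GENCODE (22721 rows). Named genes are the 20 highest rows (3 rows with clone or predicted names were passed over), the 10 most and 10 least variable at or above 0 (4 and 1 passed over), the top and bottom members of each list, a set of paralogue groups and the cell type markers. Some of these are not reported here. The Mir rows printed with sequences were chosen by their level after their values were seen. The members and lists were chosen with earlier results of these data known. Near-identical copies (7SL, 18S, tubulins, globins, histones, calmodulins) may share reads. Python 3.11.15, pandas 2.3.3, numpy 2.4.6 and matplotlib 3.10.9 were used, and the steps were tested on simulated data. Alternatives were each library left out, other filters and level thresholds, medians, a common median, division by gene length, and signal per kb of exon.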

Additional observations from a re-analysis of the deposited data

How the results depend on the processing

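No paired analysis was possible because no value here comes from a test between groups. The rows with a value in every library used numbered 30776 to 31106 when 1 library was left out, and rows at or above 0 then numbered 7188 to 7244. The median level was -2.74 to -2.72 without 1 library, where more low rows have a value, and -3.98 over rows with a value in at least 1 library. A level threshold of 1 left 4140 rows in place of 7200. The median SD at or above 0 was 0.0525 to 0.0816 with 1 library left out, lowest without replicate 3, and 0.180 with no filter on level. The 10 highest families all remained so with any library left out or with missing values at the lowest value of the table. With medians over members 9 of them did, and per kb of exon (an alternative chosen after seeing the data) 7. When the signal was divided by gene length once more, 5 did. A common median could not change the order, because its shifts of the libraries cancel in each family's mean. The thalamus list lay above the pyramidal list by 2.38 to 3.35 with 1 library left out, by 1.65 with medians over members and, chosen after seeing the data, by 3.80 per kb of exon and 0.25 for Slc17a6 against Slc17a7 alone. With any library left out, all 62 family levels and all 22 marker list levels moved by less than their SD between libraries. A mean of 3 values cannot move by its SD when 1 is left out, so this outcome was fixed in advance. Per kb of exon, 56 of 61 family levels moved by more than their SD between libraries. Depth is unknown, so it cannot be said which rows without a value were below detection.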
